A study of Rattus norvegicus with 8 samples.

Results

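The genes described here are the interleukins and interleukin receptors measured in rat femoral bone around a titanium implant, taken as every locus of the deposited gene table whose symbol starts with Il and a digit, without Il1b, Il1a, Il1rn, Il1r1, Il1r2, Il1rap, Il18, Il5ra and Il7. This rule gave 44 of the 19120 gene loci, each symbol at 1 locus. By role they comprise 10 ligands, 32 receptor chains or receptor-like proteins, the binding protein Il18bp and 1 enzyme. The symbols are wider than interleukins outside the IL-1 family. Among them 8 are relatives of the IL-1 system: Il33, Il36b, Il18bp, Il18r1, Il18rap, Il1rl1, Il1rl2 and Il1rapl1. Il4i1 is an L-amino acid oxidase named for its induction by IL-4, and is no interleukin.

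The libraries were made from ribosome-depleted total RNA of male Wistar rats aged 12 to 13 weeks, with implants in both femoral shafts. All were sampled 10 days after implantation as bone within 1 mm of the implant, freed of muscle. The normal group had a normal diet and the hyperlipidemic group a high-fat diet for 8 weeks, with 4 libraries each. Nothing in the labels ties the libraries to separate animals, so p-values measure the spread between these 8 libraries, which may be technical. Levels are FPKM, fragments scaled by the length of the locus and the size of the library, and are therefore per length. Read depth per library is unknown, since counts were not used.

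Interleukins are secreted signals of immune and stromal cells. In mice and humans most of those treated here bind receptors built from a ligand-specific chain and a chain shared by several ligands, such as the common gamma chain Il2rg or the gp130 chain Il6st, and signal through JAK kinases and STAT transcription factors. The IL-17 and IL-1 related receptors instead signal through adaptor proteins. In bone marrow these signals act on lymphoid and myeloid precursors, and in bone IL-6, IL-17 and IL-4 family signals act on osteoclast formation.

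Markers of bone were present in all libraries. Summed over 6 genes, among them Col1a1 and Bglap, they reached 2638 to 4243 FPKM in normal and 1258 to 2174 in hyperlipidemic libraries. These sums did not overlap. Of the 6 genes 5 had a log2 change below 0 (6 under median-of-ratios scaling), and 1 was called lower. The part of this difference in the values of the members was not tested. The specimens also held marrow. Neutrophil markers summed to between 9776 and 12650 FPKM and monocyte and macrophage markers to between 4152 and 6684 over the 8 libraries. Such bulk values cannot tell fewer cells of a type from less RNA per cell. Hyperlipidemic replicate 1 stood apart with the highest summed skeletal muscle (84.9 FPKM) and adipocyte (329 FPKM) markers, against at most 21.8 and 86.5 in each other library. Adipocyte marker sums did not overlap between the groups even so, at 12.7 to 67.3 FPKM in normal and 75.4 to 329 in hyperlipidemic libraries, with 5 of 6 tested genes above 0 and 1 called. Of the tested megakaryocyte and platelet markers 10 of 10 had a log2 change above 0 (9 of 10 under median-of-ratios scaling), and of the erythroid markers 8 of 8, none called, and both sums overlapped. The part of these cells in the values of the members was not tested. Normal replicates 1 and 4 had the highest shares of gene loci listed at 0, 30.7% and 35.6%.

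Receptors made up most of the measured interleukin genes, and Il17ra, the receptor chain shared by IL-17A and related ligands, had the highest level of the 44 in each of the 8 libraries. Il17ra (chromosome 4, 152995865 to 153018394 on Rnor_6.0) measured 18.0, 32.2, 26.9 and 10.9 FPKM in normal replicates 1 to 4 and 32.8, 28.3, 35.5 and 30.3 FPKM in hyperlipidemic replicates 1 to 4. It took between 10.5% and 21.2% of the summed FPKM of the members in normal and between 20.5% and 25.1% in hyperlipidemic libraries. The members summed to between 104 and 152 FPKM in normal and between 127 and 160 FPKM in hyperlipidemic libraries, and the ranges of both sums overlapped. Total FPKM over all loci differed among libraries, from 510668 to 906019 in normal and from 496578 to 584474 in hyperlipidemic libraries. Normal replicate 4 had the highest total and the lowest sum of members, and these FPKM were not rescaled.

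Below Il17ra a group of 11 members with a mean over 8 libraries from 3.66 to 10.5 FPKM followed, in the order Il10rb, Il13ra1, Il18rap, Il16, Il6st, Il3ra, Il2rg, Il6r, Il10ra, Il12a and Il4r. Neighbours in this order overlapped in their values over libraries. Of these, Il16, a chemoattractant of CD4-bearing cells, and Il12a, the p35 subunit of IL-12, are the ligands. Il16 measured 7.09 ± 1.96 FPKM in normal and 7.91 ± 0.991 in hyperlipidemic libraries (mean ± SD, n = 4 each). Il12a measured 5.47 ± 2.02 and 4.51 ± 1.19 FPKM. A lncRNA transcript under the same locus identifier ranged from 1.40 to 7.59 FPKM in normal and from 1.06 to 2.39 in hyperlipidemic libraries. Its part in the Il12a values was not tested. The remaining receptors, binding proteins and ligands lay below a mean of 3.66 FPKM.

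**Figure D1:**
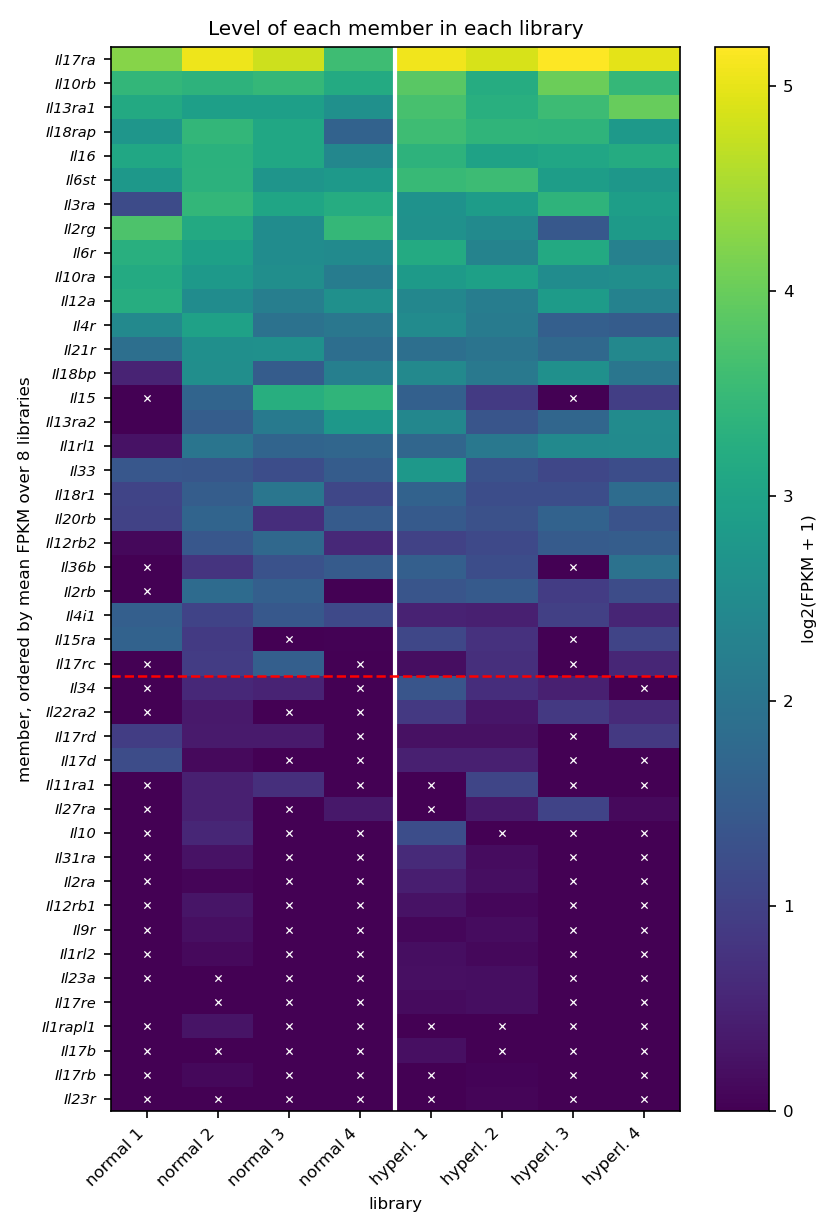
Level of the 44 members (rows, ordered by mean FPKM) in the 4 normal and 4 hyperlipidemic (hyperl.) libraries, as colour on a log2(FPKM + 1) scale; white crosses mark values listed at 0. The 26 members above the dashed line had a mean of at least 0.5 FPKM and were tested; Il17ra is the top row in all 8 libraries.

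Of the 44 members, 26 had a mean of at least 0.5 FPKM over the 8 libraries and were tested, and 21 of these were above 0 in every library. The other 18 had means between 0.00570 and 0.439 FPKM, and each was listed at 0 in at least 1 library. By role, 19 of 32 receptors and 5 of 10 ligands passed this filter. The IL-17 ligands Il17b and Il17d, the IL-23 subunit Il23a, Il10 and Il34 did not. Il34, a ligand of the macrophage growth factor receptor, came closest, with 0, 0.519, 0.435 and 0 FPKM in normal replicates 1 to 4 and 1.57, 0.603, 0.381 and 0 in hyperlipidemic replicates 1 to 4. Il10, an inhibitory cytokine, was listed at 0 in 6 libraries and at 0.462 FPKM in normal replicate 2 and 1.35 FPKM in hyperlipidemic replicate 1.

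How many members were listed at 0 differed among libraries of the same group. The count was 19, 4, 16 and 18 in normal replicates 1 to 4 and 5, 3, 19 and 15 in hyperlipidemic replicates 1 to 4. Normal replicate 2 and hyperlipidemic replicates 1 and 2 thus listed the fewest members at 0 (9.09%, 11.4% and 6.82%). They also listed the fewest of all loci at 0, between 12.3% and 17.4%, against 25.4% to 35.6% in the other libraries. Among the 18 untested members, Il2ra, Il12rb1, Il9r, Il1rl2 and Il31ra were above 0 in these 3 libraries and at 0 in the other 5. A listed 0 does not by itself show that a transcript was absent, and no fold is given for these genes.

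**Figure D2:**
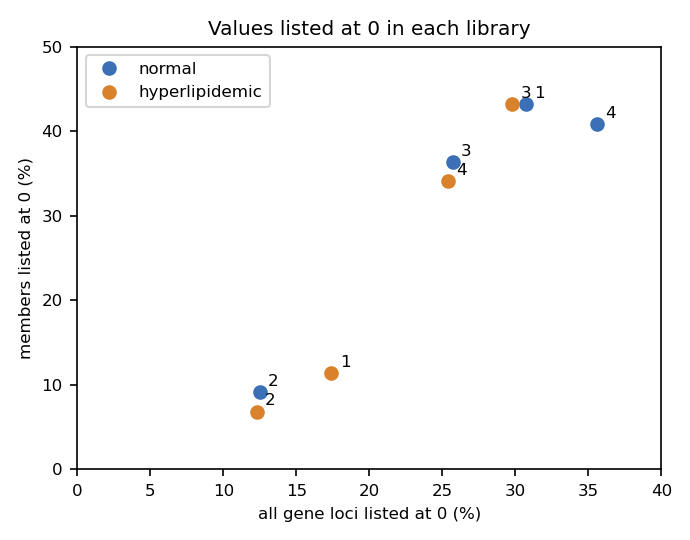
Share of the 44 members listed at 0 (vertical axis, %) against the share of all 19120 gene loci listed at 0 (horizontal axis, %), 1 point per library, labelled by replicate number and coloured by group. Normal replicate 2 and hyperlipidemic replicates 1 and 2 sit lowest on both axes, and both groups hold libraries at either end.

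The comparison of the groups asks how the high-fat diet differs from the normal diet at these genes in bone healing around an implant. None of the 26 members passed the threshold in either direction (limma on log2(FPKM + 1), Benjamini-Hochberg adjusted p under 0.05 over all 13742 genes tested). The smallest adjusted p was 0.264, for Il13ra1. Over all genes 191 passed, which is 1.39% of those tested, 0.146% higher and 1.24% lower in the hyperlipidemic group. At an unadjusted p under 0.05 there were 3 members (11.5%), against 13.0% of all genes tested. The groups did not overlap for 2 members (7.69%), against 7.94% of all genes. Of the 26 members 18 had a log2 change above 0, or 69.2%, against 65.0% of all genes tested. With median-of-ratios scaling 16 members were above 0 and with quantile normalization 14, each against 54.4% of all genes, since both lower the median of all genes by over 0.1. The median log2 change was 0.22 for the members and 0.18 for all genes tested. Each of these shares was near its background. A 95% interval of a member's log2 change reached a median of 0.79 to either side. By the authors' deposited table, Il22ra2, Il4i1 and Il13ra1 had a p under 0.05, which is 3 of the 44 members (6.82%) against 5.32% of all loci, and the smallest q was 0.786.

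**Figure D3:**
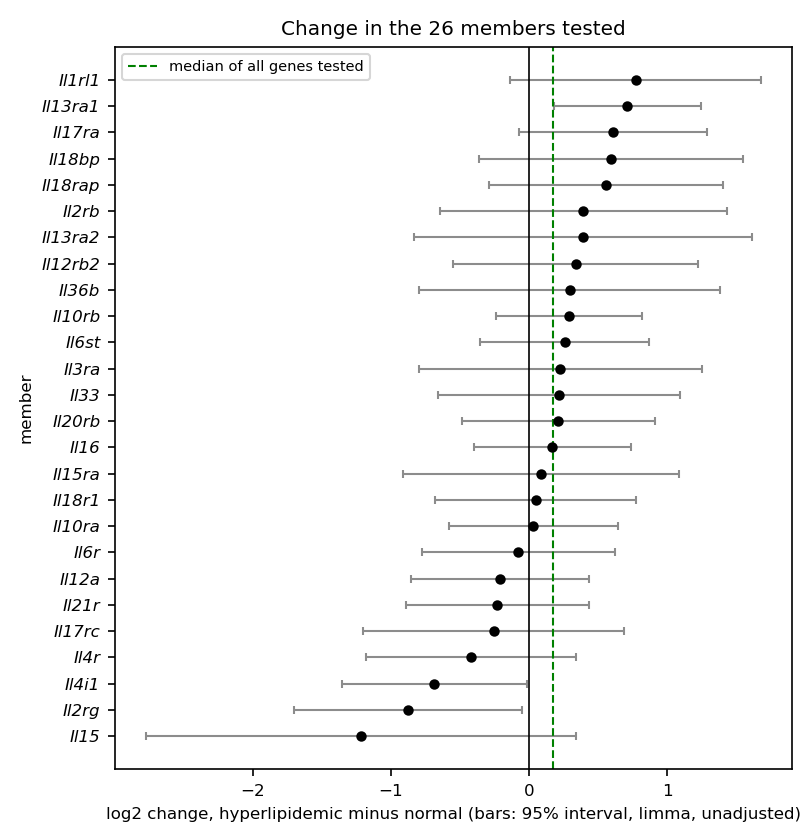
Log2 change (hyperlipidemic minus normal, horizontal axis) of the 26 members tested, with 95% intervals from limma that are not adjusted for the number of genes. Intervals of Il13ra1, Il2rg and Il4i1 leave out 0; the dashed line marks the median of all genes tested, 0.18.

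Among the receptors of IL-4 and IL-13, the groups did not overlap in Il13ra1 and overlapped in Il4r and Il13ra2. No chain was called, and whether the chains differ in their change was not tested. Il13ra1, which forms a receptor for IL-4 and IL-13 with Il4r (chromosome X, 122724129 to 122781479 on Rnor_6.0), measured 7.94, 6.63, 6.61 and 5.08 FPKM in normal replicates 1 to 4. It measured 11.8, 8.65, 10.7 and 14.7 FPKM in hyperlipidemic replicates 1 to 4. Every hyperlipidemic library lay above every normal one, as it did for 4.19% of all genes tested. The log2 change was 0.71 ± 0.24 (SE; 95% interval 0.18 to 1.24; limma adjusted p = 0.264), and the ratio of group means was 1.75. It did not pass under any alternative run, with adjusted p from 0.190 to 0.600.

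Il4r measured 4.44, 6.83, 2.86 and 3.17 FPKM in normal and 4.71, 3.47, 1.98 and 1.83 FPKM in hyperlipidemic replicates 1 to 4, so the groups overlapped (log2 change -0.42, 95% interval -1.18 to 0.34; -0.21 without normal replicate 2 and -0.27 without hyperlipidemic replicate 4). Il13ra2, a decoy receptor that binds IL-13, ranged from 0.00367 to 5.83 FPKM in normal and from 1.59 to 4.66 FPKM in hyperlipidemic libraries. Over the 8 libraries Il13ra1 exceeded Il4r in 7. Eosinophils and macrophages carry Il13ra1 in mice and humans, and eosinophil markers were higher in the hyperlipidemic group, at 1655 to 1867 FPKM summed over 7 genes against 896 to 1234. Of those 7, 6 had a log2 change above 0, against 65.0% of all genes tested, and none was at 0 in all libraries. The test called 1 of them higher, as it did 0.146% of all genes. Macrophage marker sums overlapped (4152 to 6037 and 5174 to 6684 FPKM, 4 of 9 above 0). The part of either in the Il13ra1 values was not tested.

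The promoters of Il13ra1 and of Il2rg, the pair of members with the smallest p and neither called, are printed as examples that differ in base composition. Both run from 250 bases before to 50 bases after the start in RefSeq, on build GRCr8, and capitals mark GGGCGG on either strand (written GGGCGG or CCGCCC).
Il13ra1, chrX:120214355-120214654, plus strand: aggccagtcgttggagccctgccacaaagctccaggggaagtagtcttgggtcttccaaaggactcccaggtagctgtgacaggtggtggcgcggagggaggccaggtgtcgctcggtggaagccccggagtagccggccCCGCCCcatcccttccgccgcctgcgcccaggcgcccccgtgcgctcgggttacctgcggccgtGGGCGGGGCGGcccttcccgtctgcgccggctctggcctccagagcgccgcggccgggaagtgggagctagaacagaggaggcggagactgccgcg
Il2rg, chrX:70438951-70439250, minus strand: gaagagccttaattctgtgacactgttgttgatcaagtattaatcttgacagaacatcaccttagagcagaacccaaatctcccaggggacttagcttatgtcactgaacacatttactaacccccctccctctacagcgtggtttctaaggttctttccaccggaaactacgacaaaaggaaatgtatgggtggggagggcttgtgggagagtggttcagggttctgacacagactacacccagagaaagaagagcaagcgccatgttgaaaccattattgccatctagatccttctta
The Il13ra1 promoter is 71.7% G and C with 29 CG steps and 3 matches to GGGCGG, a pair of which overlap, and the Il2rg promoter is 45.7% G and C with 4 CG steps and 0 matches. The median over all 33469 promoters was 51.7%, and 33.1% of them held GGGCGG on either strand. Whether base composition goes with the change of a gene was not tested.

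Of the common gamma chain and the receptor chains of its family, 5 were tested, 3 with a log2 change below 0 (Il2rg, Il4r and Il21r), 2 above (Il2rb and Il15ra, the latter turning to -0.23 under quantile normalization) and none called. Il2rg, the chain shared by the receptors of IL-2, IL-4, IL-9, IL-15 and IL-21 (chromosome X, 71162585 to 71169865 on Rnor_6.0), measured 12.4, 7.94, 4.77 and 9.94 FPKM in normal replicates 1 to 4. It measured 5.16, 4.61, 1.70 and 6.13 FPKM in hyperlipidemic replicates 1 to 4. Normal replicate 3 lay within the hyperlipidemic range and the other normal libraries above it. Its log2 change was -0.88 ± 0.37 (SE; 95% interval -1.70 to -0.05; limma adjusted p = 0.357). Without hyperlipidemic replicate 3, the lowest library, it was -0.57 with an unadjusted limma p of 0.117. The summed level of 11 B cell markers was 126 to 157 FPKM in normal and 56.1 to 117 FPKM in hyperlipidemic libraries, with 10 of 11 members lower (11 of 11 under both other scalings) and none called. T and NK cell markers summed to 76.9 to 162 and 70.0 to 92.5 FPKM, with 8 of 8 tested members lower and none called. No marker of either list was at 0 in all libraries, and the part of these cells in the Il2rg values was not tested.

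Il21r, the IL-21 receptor chain, measured 3.88 ± 1.36 and 3.10 ± 0.865 FPKM (mean ± SD, n = 4 each). Il2rb, which IL-2 and IL-15 share, was at 0, 2.54, 1.97 and 0.0120 FPKM in normal against 1.59, 1.78, 0.903 and 1.32 FPKM in hyperlipidemic replicates 1 to 4. The normal values of Il2rb thus enclosed all hyperlipidemic ones, and its log2 change of 0.40 was 0.11 without normal replicate 1, 0.72 without normal replicate 2 and -0.08 with array weights. Il15ra, which presents IL-15, overlapped as well, at 0.742 ± 0.988 and 0.724 ± 0.526 FPKM. Il2ra and Il9r were under the filter.

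Il15, the only ligand of this family among the members, had the log2 change of greatest size among the 26 but also the widest interval. It was listed at 0, 2.18, 8.47 and 9.53 FPKM in normal replicates 1 to 4, against 2.03, 0.843, 0 and 0.947 FPKM in hyperlipidemic replicates 1 to 4. Normal replicates 2, 3 and 4 lay above all hyperlipidemic libraries, whereas normal replicate 1 was at 0. The log2 change was -1.22 (95% interval -2.78 to 0.34; limma adjusted p = 0.472). Single libraries moved it in both directions. Without normal replicate 1 it was -1.91 (limma adjusted p = 0.135), without normal replicate 3 -0.83 (adjusted p = 0.567) and without normal replicate 4 -0.78 (adjusted p = 0.661). The authors' deposited table marks Il15 as down, with a fold of 0.371, p = 0.214 and q = 0.891.

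**Figure D4:**
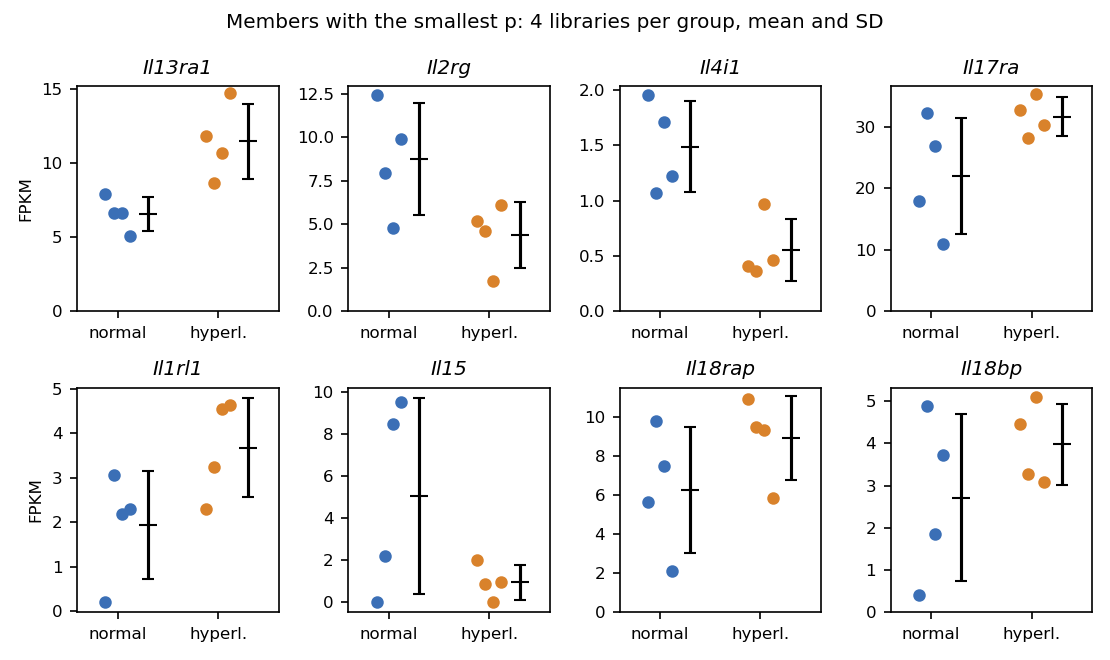
FPKM (vertical axis) in the 4 normal and 4 hyperlipidemic (hyperl.) libraries for the 8 members with the smallest limma p, with mean and SD beside the points. Il13ra1 and Il4i1 separate the groups; in Il15 and Il1rl1 normal replicate 1 holds the lowest normal value, 0 and 0.199 FPKM.

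Il4i1, the amino acid oxidase of phagocytes and B cells (chromosome 1, 100830064 to 100836677 on Rnor_6.0), was the other member without overlap. It measured 1.95, 1.07, 1.71 and 1.22 FPKM in normal and 0.407, 0.364, 0.973 and 0.459 FPKM in hyperlipidemic replicates 1 to 4. All hyperlipidemic values lay below the lowest normal one, as for 3.75% of all genes tested, though hyperlipidemic replicate 3 came within 0.1 FPKM of it. The log2 change was -0.68 ± 0.30 (SE; 95% interval -1.35 to -0.02; limma adjusted p = 0.371). The ratio of the normal to the hyperlipidemic mean was 2.70.

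Receptors of the gp130 family overlapped between the groups. Il6st, the gp130 chain, measured 5.85, 9.09, 5.55 and 6.05 FPKM in normal and 10.3, 10.7, 6.36 and 5.69 FPKM in hyperlipidemic replicates 1 to 4 (log2 change 0.26, 95% interval -0.36 to 0.87). The change ran from 0.13 to 0.40 on leaving out single libraries and was 0.11 under median-of-ratios scaling. Il6r, the IL-6 binding chain, measured 6.16 ± 1.90 and 5.93 ± 2.34 FPKM (log2 change -0.08, 95% interval -0.78 to 0.62; 0.08 without normal replicate 1). Il6st exceeded Il6r in 6 of 8 libraries, with means of 7.46 and 6.04 FPKM. Of lncRNA transcripts under the Il6r locus identifier, MSTRG.70388.4 ranged from 1.10 to 3.51 FPKM in normal and from 2.50 to 8.46 in hyperlipidemic libraries. MSTRG.70388.5 ranged from 1.91 to 2.82 and from 2.28 to 2.73 FPKM, and MSTRG.70388.6 from 2.48 to 4.88 and from 3.18 to 5.47. Their part in the Il6r values was not tested. The other members of this family were far lower than Il6st in each library. Il11ra1 averaged 0.262 FPKM, Il27ra 0.256 and Il31ra, which pairs with Osmr, 0.106. Il11ra1, the IL-11 receptor, was above 0 in 3 libraries, at 0.364, 0.622 and 1.11 FPKM.

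Of the IL-10 family receptors 3 were tested, all with overlapping groups, and none was called. Il10rb, the chain that IL-10 shares with IL-22 and related ligands, measured 9.85, 9.21, 9.95 and 8.02 FPKM in normal and 13.5, 8.33, 15.3 and 10.0 FPKM in hyperlipidemic replicates 1 to 4. Hyperlipidemic replicate 2 lay within the normal range and the other 3 above it (log2 change 0.29, 95% interval -0.24 to 0.82; 0.13 with median-of-ratios scaling, and 0.16 on leaving out hyperlipidemic replicate 3). Il10ra, the IL-10 binding chain, measured 5.62 ± 1.90 and 5.62 ± 0.976 FPKM, a log2 change of 0.03 (95% interval -0.58 to 0.64), whose sign turned under either other scaling (-0.11 and -0.07). Il10rb was above Il10ra in all 8 libraries. Il20rb, a chain for IL-19, IL-20 and IL-24, measured 1.40 ± 0.716 and 1.70 ± 0.288 FPKM. Il22ra2, a soluble binder of IL-22, read 0.275 FPKM in normal replicate 2 and 0 in the other 3 normal libraries. It read 0.826, 0.244, 0.806 and 0.528 FPKM in hyperlipidemic replicates 1 to 4, so hyperlipidemic replicate 2 overlapped the normal group, and its mean was under the filter.

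In the IL-17 family the shared chain Il17ra stood far above its partners. Its log2 change was 0.61 ± 0.31 (SE; 95% interval -0.07 to 1.29; limma adjusted p = 0.423). It was 0.33 without normal replicate 4 and 0.30 with array weights. Normal replicates 2 and 3 had values close to those of the hyperlipidemic libraries and normal replicates 1 and 4 lower ones. Il17rc, which pairs with Il17ra for IL-17A and IL-17F, averaged 0.513 FPKM against 26.9 for Il17ra and was lower in all 8 libraries. Il17rd averaged 0.376 ± 0.383 and 0.294 ± 0.362 FPKM, and Il17rb and Il17re, the chains for IL-25 and IL-17C, were listed at 0 in 6 and 5 libraries. Of the ligands, Il17d reached 1.31 FPKM in normal replicate 1 and was at 0 in 4 libraries, and Il17b was above 0 in hyperlipidemic replicate 1 alone, at 0.157 FPKM. The signalling list of this family had 11 genes tested, 8 with a log2 change above 0, against 65.0% of all genes, and 3 below. Under median-of-ratios scaling 7 of these 11 were above 0 and 4 below, and none was called. Their median was 0.32, against 0.18 for all genes, and 0.17 and 0.11 under median-of-ratios scaling and quantile normalization, each against 0.05. Zc3h12a, a ribonuclease that limits IL-17 signals, had no overlap, as for 3.75% of all genes in that direction, at 5.77 ± 1.36 and 3.32 ± 0.172 FPKM (log2 change -0.63, limma adjusted p = 0.328). The kinase Map3k7 (4.18 ± 2.20 and 7.06 ± 1.497), its partner Tab3 (4.72 ± 1.73 and 6.80 ± 1.33) and the adaptor Traf3ip2 (1.08 ± 0.659 and 1.66 ± 0.688 FPKM) overlapped.

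The tested receptors of IL-3 and of the IL-12 group overlapped between the diets and were not called. Il3ra, the IL-3 binding chain, measured 1.26, 9.89, 7.30 and 8.33 FPKM in normal and 5.28, 6.30, 9.41 and 6.50 FPKM in hyperlipidemic replicates 1 to 4. Normal replicate 1 was the lowest of all, and the log2 change of 0.23 turned to -0.29 without it. Its shared beta chain Csf2rb measured 20.2 ± 7.002 and 16.3 ± 1.40 FPKM. Il12rb2, the signalling chain for IL-12, ranged from 0.0787 to 2.36 FPKM in normal and from 1.03 to 1.90 FPKM in hyperlipidemic libraries. Il12rb1, its partner, averaged 0.0594 FPKM, below Il12rb2 in each library. Il23r was listed above 0 in hyperlipidemic replicate 2 alone, at 0.0456 FPKM. Il23a, the ligand subunit, read 0.155 and 0.137 FPKM in hyperlipidemic replicates 1 and 2 and 0 elsewhere.

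Among relatives of the IL-1 system, all 6 tested members had a log2 change above 0, against 65.0% of all genes tested, and none was called. Under either other scaling 5 of the 6 were above 0, against 54.4% of all genes. Il18r1, at 0.05, turned to -0.05 under median-of-ratios scaling and to -0.17 under quantile normalization. Il1rl1, the IL-33 receptor ST2 of mast cells, eosinophils and some lymphocytes, measured 0.199, 3.07, 2.18 and 2.28 FPKM in normal and 2.29, 3.25, 4.54 and 4.63 FPKM in hyperlipidemic replicates 1 to 4. Normal replicate 1 lay far below the rest, and the change of 0.77 (limma adjusted p = 0.440) was 0.39 without it. Mast cell and basophil marker sums overlapped, at 56.8 to 99.99 and 59.4 to 84.2 FPKM, whereas the eosinophil sums given above did not and were higher in the hyperlipidemic group. The part of these cells in the Il1rl1 values was not tested. Il33, the ligand of Il1rl1 released by stromal and barrier cells, measured 1.65, 1.63, 1.33 and 1.85 FPKM in normal and 5.82, 1.48, 1.14 and 1.35 FPKM in hyperlipidemic replicates 1 to 4. Hyperlipidemic replicate 1, the library with the highest muscle and adipocyte markers, alone lay above the normal range. The log2 change of Il33 was 0.22 with it and -0.17 without it, and the part of those tissues was not tested.

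Il18rap, the signalling chain for IL-18, measured 5.66, 9.77, 7.50 and 2.11 FPKM in normal and 10.9, 9.47, 9.33 and 5.87 FPKM in hyperlipidemic replicates 1 to 4 (log2 change 0.56, 95% interval -0.29 to 1.40). Without normal replicate 4, the lowest library, the change was 0.19. Il18r1, the binding chain, measured 1.805 ± 0.934 and 1.84 ± 0.599 FPKM, below Il18rap in all 8 libraries. Il18bp, a secreted inhibitor of IL-18, was at 0.424, 4.88, 1.85 and 3.71 FPKM in normal against 4.46, 3.27, 5.09 and 3.09 FPKM in hyperlipidemic replicates 1 to 4. Normal replicate 1 was again lowest, and the log2 change of 0.59 was 0.19 without it. Il36b, an IL-36 ligand, was listed at 0 in normal replicate 1 and hyperlipidemic replicate 3 and reached 1.82 and 2.90 FPKM in the groups. Il1rl2, the IL-36 receptor, averaged 0.0387 FPKM, and Il1rapl1, known from neurons, was above 0 in normal replicate 2 alone, at 0.211 FPKM.

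Many of these receptors are neighbours on the genome, and in some pairs the genes side by side differed widely in level. Neighbouring genes outside the members were not examined. Il2ra, Il31ra, Il23r, Il17re and Il1rl2, each the lower gene of a pair, were under the filter. Within 200 kb of each other lay 14 members, in 8 adjacent pairs on 5 chromosomes. On chromosome 9 the IL-1 related receptors follow each other from 47047832 to 47258503 (Rnor_6.0) in the order Il1rl2, Il1rl1, Il18r1 and Il18rap, with means of 0.0387, 2.80, 1.82 and 7.58 FPKM. Only 3272 bp separate Il1rl1 from Il18r1, and 6409 bp Il18r1 from Il18rap. On chromosome 2 Il6st averaged 7.46 FPKM and Il31ra, 21061 bp away, 0.106. On chromosome 4 Il12rb2 averaged 1.32 FPKM and Il23r, 62475 bp away, 0.00570. Il17re and Il17rc, 763 bp apart, averaged 0.0309 and 0.513 FPKM. In 4 of the 8 pairs the same gene was higher in all 8 libraries. By contrast Il4r and Il21r on chromosome 1 lay 29360 bp apart at 3.66 and 3.49 FPKM, and neither was consistently above the other. Il1rl1 was above Il18r1 in 6 libraries and below it in 2. In pairs with both genes tested, the ratio of means was 1.05 (Il4r and Il21r), 1.54 (Il1rl1 and Il18r1) and 4.16 (Il18rap and Il18r1). Genes 763 bp apart may share fragments, and how the authors' counting assigned these remains not given in the sources used here.

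**Figure D5:**
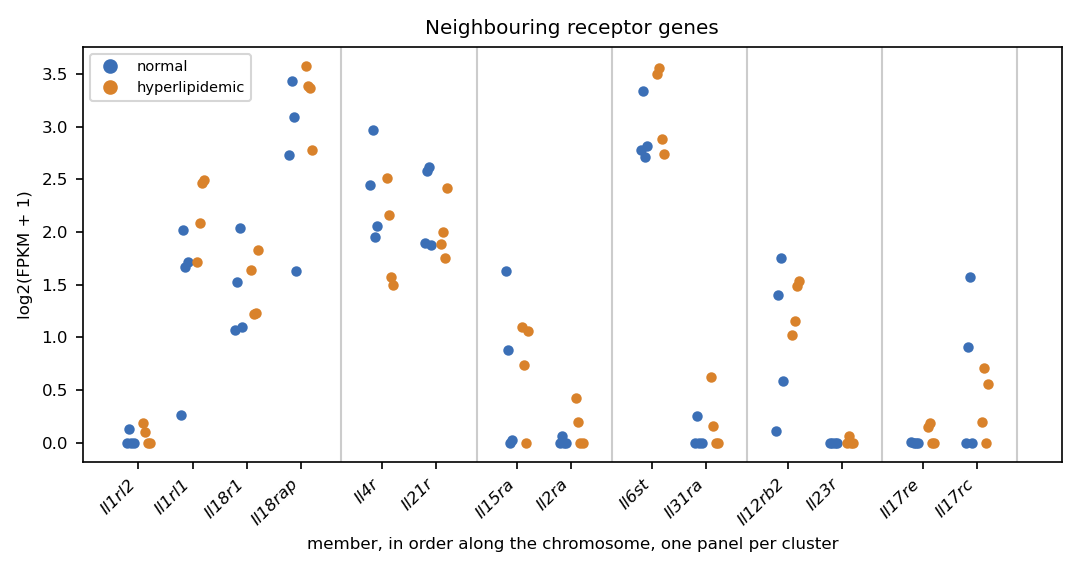
Level, as log2(FPKM + 1), of the 14 members that lie within 200 kb of another member, in order along each of 6 clusters, with 1 point per library and the groups side by side. Within a cluster levels run from near 0 (Il1rl2, Il31ra, Il23r) to the highest of the cluster (Il18rap, Il6st, Il12rb2) in both groups.

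Promoter sequences were searched for the binding motifs of STAT factors, which have the letters TTCNNNGAA or, for STAT6, TTCNNNNGAA. That a receptor signals to STAT factors does not make its own gene a STAT target. Both motifs read the same on either strand. Of the 44 members 35 had an entry in the RefSeq promoter table of GRCr8, with 41 promoters in all. TTCNNNGAA was found in 5 of these 41, and in 8.87% of all 33469 promoters. TTCNNNNGAA was found in 4 of the 41, and in 7.28% of all. The sites are shown with up to 8 bases on either side, 5′ to 3′ along the gene, with the motif in capitals.
Il10rb, chr11:44132622-44132646, plus strand: ggcggaggTTCCGGGAAgggcgcgg
Il18r1, chr9:50223358-50223382, plus strand: cgcagggcTTCCCAGAActgaaagc
Il12rb2, chr4:97845098-97845122, minus strand: tccctcttTTCTCAGAAccacacta
Il36b, chr3:27428722-27428746, minus strand: taaagaatTTCATAGAAttgtagga
Il17d, chr15:35786909-35786933, plus strand: ttatttacTTCGCAGAAgagcctcc
Il1rl1, chr9:50203432-50203457, plus strand: ttgattgtTTCCCCTGAAatggatta
Il18bp, chr1:165787111-165787136, minus strand: ggagtttgTTCTAGAGAAagtaaagg
Il20rb, chr8:109889116-109889141, minus strand: gttatcatTTCTCTGGAActctgaca
Il23a, chr7:1308657-1308682, minus strand: aaccaaacTTCGAATGAAcctgagct
A match is a run of letters and not a shown binding site. The members that hold one include Il10rb at a mean of 10.5 FPKM and Il23a at 0.0365, and of the 9 genes 7 were tested, none of which was called.

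The kinases, transcription factors and inhibitors downstream of these receptors had 24 members of 26 in the gene table, all tested, with 19 log2 changes above 0, 5 below and none called. Under median-of-ratios scaling 13 of the 24 were above 0, and under quantile normalization 14. The share over all genes was 65.0% without scaling and 54.4% under each of these. The median of the 24 was 0.14, against 0.18 for all genes, and 0.0093 and 0.067 under those scalings. Jak2, the kinase of the IL-3 and IL-12 receptors, measured 10.9, 10.2, 16.7 and 12.6 FPKM in normal and 22.3, 15.6, 22.8 and 22.3 FPKM in hyperlipidemic replicates 1 to 4, where hyperlipidemic replicate 2 overlapped (log2 change 0.68, limma adjusted p = 0.264). Ptpn11, the phosphatase SHP2, measured 8.86 ± 5.02 and 18.9 ± 4.05 FPKM (log2 change 1.15, adjusted p = 0.257). Ptpn2, a phosphatase that acts on JAKs, measured 8.59 ± 3.48 and 13.7 ± 1.53 FPKM, without overlap, as for 4.19% of all genes in that direction (log2 change 0.71, limma adjusted p = 0.390). Without normal replicate 4, at 3.40 FPKM, the change was 0.37. Socs7 measured 3.496 ± 1.06 and 2.40 ± 0.561 FPKM. Among 9 tested cytokines and receptors that share chains with interleukins, 3 were above and 6 below 0 (2 and 7 under quantile normalization), none called, with a median of -0.06 (-0.21 under median-of-ratios scaling). Crlf2, the TSLP receptor that pairs with the IL-7 receptor, read 8.41 and 4.66 FPKM in normal replicates 2 and 3 and 0 in the other pair of normal libraries, against 4.76 to 8.80 FPKM in the hyperlipidemic group. Osmr, the oncostatin M receptor that pairs with Il6st and Il31ra, measured 4.31 ± 3.72 and 2.09 ± 0.900 FPKM. Ebi3, a subunit shared by IL-27 and IL-35, measured 1.13 ± 1.05 and 2.65 ± 1.41 FPKM.

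The lncRNA table held 16 transcripts that overlap 9 member loci, 6 of them at Il6r, and 10 lay within the member's locus. In all 16 the groups overlapped, and the authors' deposited table gives them q from 0.749 to 0.976. At Il17ra, MSTRG.94118.1 ranged from 6.10 to 9.76 FPKM in normal and from 4.97 to 9.33 FPKM in hyperlipidemic libraries. Under the Il17ra locus identifier itself, MSTRG.94117.4 ranged from 2.80 to 4.84 and from 2.31 to 3.95 FPKM. Under that of Il36b, MSTRG.77482.3 reached 0.284 FPKM in normal and 2.81 in hyperlipidemic libraries. At the start of Il13ra1, MSTRG.137890.1 was at 27.0 FPKM in normal replicate 1 and at no more than 0.113 FPKM in each other library. The libraries were made by a strand-marking method, but the use of strand in counting remains not given in the sources used here. Fragments of a member and of a lncRNA at its locus therefore cannot be told apart.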

How the data were processed

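Bone within 1 mm of femoral implants was sequenced in 4 normal and 4 hyperlipidemic libraries, grouped by the labels and the letters and numbers of the table headers, with 0 per-sample columns unmatched. The build was Rnor_6.0 and the tools StringTie 1.3.3b, HISAT2 2.1.0 and bcl2fastq 1.8.4, per the submitters' processing notes. Annotation, filters and the authors' test remain not given in the sources used here. For each library, the authors deposited FPKM, along with a fold change as a ratio of hyperlipidemic over normal, its log2 value, and p-values and q-values. FPKM carry no counts, so a low value has unknown precision.

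Genes with a mean of at least 0.5 FPKM were taken to log2 after adding 1 and compared with limma 3.58.1 in R 4.3.3, with a trend in the prior variance and Benjamini-Hochberg adjustment over all genes tested. Adding 1 understates the change of low genes. The fit was tested on simulated data with normal noise and with changes placed only in genes of higher mean. That simulation does not show how often changes in genes of low level would be found. No scaling was applied.

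The members and lists were chosen with earlier results of these data known. The genes described in full are the 12 members with the smallest p, the 12 with the highest mean, fixed receptors and ligands (of which Il6, Il7r and Il11 are not analysed here) and the 4 genes of smallest p in each of 3 signalling lists. Others are given by range or as neighbours. All 44 symbols matched the RefSeq gene table, and sequences come from RefSeq on GRCr8. Alternatives were another pseudocount, no filter, a filter at 1 FPKM, both other scalings, a replicate block, no trend, array weights and each library left out. Leaving out replicate 1 of both groups was chosen after seeing the data.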

Additional observations from a re-analysis of the deposited data

Results flagged for a closer look

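In groups of 4 libraries, 1 value lay far from the other 3 by Dixon's criterion in 7 of the 76 group sets examined, where chance alone flags about 5%. Among members, Il33 stood at 5.82 FPKM in hyperlipidemic replicate 1, with the next value at 1.48. Il6st stood at 9.09 FPKM in normal replicate 2, with the next at 6.05. Il4i1 stood at 0.973 FPKM in hyperlipidemic replicate 3, with the next at 0.459. Among signalling genes, Jak2 was low at 15.6 FPKM in hyperlipidemic replicate 2, and Ptpn2 was low at 3.40 FPKM in normal replicate 4. Ebi3 was high at 4.74 FPKM in hyperlipidemic replicate 4, and Traf3ip2 was high at 2.06 FPKM in normal replicate 2.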

How the results depend on the processing

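No member was called under any of the 17 alternatives, and the smallest adjusted p reached by a member was 0.135 (Il15 without normal replicate 1, limma). All genes called were 191, and 107 with no filter on low values; on leaving out each library they ran from 112 to 226. They were 113, 125 and 112 without hyperlipidemic replicates 1, 3 and 4. The members' median log2 change of 0.22 was 0.011 under quantile normalization and ran from 0.095 to 0.27 on leaving out each library. Median-of-ratios scaling and quantile normalization moved the median of all genes by -0.13 and -0.12, and with them 16 and 14 of 26 members were above 0. Of 30 named genes with a test, 24 kept their sign throughout. Il10ra turned to -0.11 (median-of-ratios) and -0.068 (quantile), Il2rb to -0.080 and Il3ra to -0.26 with array weights, and Il3ra to -0.19 and Il33 to -0.16 without replicate 1 of both groups. On leaving out each library Il3ra ran from -0.29 to 0.47, Il6r from -0.23 to 0.079, Il10ra from -0.14 to 0.20, Il16 from -0.019 to 0.28 and Il33 from -0.17 to 0.39. Same-numbered libraries of the groups correlated in their deviations with r from 0.0107 to 0.129 across genes, and differently numbered ones with r from -0.132 to 0.0578. Hyperlipidemic replicates 1, 2 and 3 correlated best with the normal library of their own number, and hyperlipidemic replicate 4 with normal replicate 3. These values cannot decide whether the numbers pair the samples, because 4 libraries per group are few and deviations were taken within each group. With the replicate block 151 genes and 0 members were called. Depth is unknown, and the 18 members under the filter have no test.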
